A study of Salmo salar with 59 samples.

Results

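The genes fshb and lhb encode the beta subunits of follicle-stimulating hormone and luteinizing hormone, the gonadotropins made in the pituitary. Each beta subunit pairs with a common alpha subunit, and the hormones act through receptors in the gonad. In fish as in mammals, the gonadotropins drive the growth and steroid production of the testis, and their output is controlled by gonadotropin-releasing hormone from the brain and by sex steroids and inhibins from the gonad. The array carried 1 probe for each gene, so these are 2 of its 42386 probes. They were chosen by gene and not by a rule on their values, but with earlier results of these data known. In RefSeq (assembly Ssal_v3.1) fshb (gene ID 100136362) lies on chromosome 11 with 2 transcripts, and lhb (gene ID 100380386) lies on chromosome 28 with 1 transcript.

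The samples were testis, pituitary and adipose tissue of 20 Atlantic salmon (Salmo salar) males, post smolts sampled after 18 weeks in brackish water, with 1 fish and tissue per one-colour array. The 6 pubertal fish had testes labelled Stage III (fish 213), Stage IV (fish 184, 190, 245 and 211) or Stage V (fish 202), and all 14 immature fish had Stage I testes. Pubertal fish came from light group A, under constant light (fish 184, 190 and 245), and light group B, under increasing light (fish 202, 211 and 213). Immature fish were 2 of group A (188 and 250), 2 of group B (160 and 203), 5 of group D under decreasing light and 5 of group E under decreasing light with a low-fat feed. Maturity and light are therefore partly confounded, since groups D and E held no pubertal fish.

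Values are log2 intensities relative to the 75th percentile of the same array, so 0 stands for that percentile and 1 unit for a 2-fold difference. A value of 1 probe cannot be set against that of the other as an amount of mRNA. Probes well above background made up 65.2% to 82.2% of each of 5 pubertal and 69.5% to 84.3% of each immature pituitary array. The arrays of all pubertal and 6 immature pituitaries were scanned on the same day and those of the other 8 immature pituitaries on another day. The number of fish limits the precision.

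The labels of 2 pituitary arrays were in doubt. The array labelled fish 184 (Stage IV, group A) lacked the markers of the pituitary. Its values were -5.59 for prl (prolactin), -2.13 for pomca (proopiomelanocortin), -6.43 for gh (growth hormone) and -6.75 for pou1f1, a transcription factor of pituitary endocrine cells. On the other pituitary arrays pou1f1 averaged 7.47 ± 0.12 in pubertal (SD, n = 5) and 7.73 ± 0.11 in immature fish (SD, n = 14). The intensities of the 4 pituitary markers of 6 that were measured on every array were summed. This and later sums of markers add intensities before log2 is taken, so the strongest marker weighs most. The sum was -1.95 on that array, against 10.1 to 10.8 on the 5 other pubertal and 10.04 to 10.9 on the immature pituitary arrays. This array had lhb at -4.43 and fshb at -6.30, where fshb was not well above background, and was left out of the comparisons unless stated.

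The other array was that of immature fish 250. In 100 probes chosen in the other fish for levels that differed between fish alike in testis and pituitary, 18 of 19 pituitary arrays correlated best with the testis of the same fish (r = 0.47 to 0.88). The pituitary array labelled fish 250 did not, with r = 0.08 to its own testis array and 0.36 to the nearest one, that of fish 221. Its correlation with the testis array of fish 184 was -0.09. The mismatch does not tell whether the pituitary or the testis array of fish 250 departs. Over all probes the likeness within a fish was weak, with 4 of 14 immature pituitaries most like their own testis. Fish 250 was not among them, but its r of 0.18 lay within the range of the 14 fish (-0.07 to 0.27). The check over all probes thus did not set fish 250 apart. Values without this array stand beside the main comparisons. It held the highest immature pituitary value of both genes, so leaving it out raises the difference from pubertal fish by itself.

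Among the pubertal pituitaries, lhb was 8.18 in fish 190, 8.28 in fish 245, 7.75 in fish 202, 8.07 in fish 211 and 8.14 in fish 213. In the 14 immature pituitaries it had a lowest value of 3.74, a median of 5.14 and a highest value of 8.0. The groups overlapped, but only through the array labelled fish 250 (8.0), which lay above pubertal fish 202. The next highest immature values were 6.68 in fish 160 and 6.18 in fish 180.

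The means of lhb were 8.08 ± 0.20 in pubertal (SD, n = 5) and 5.14 ± 1.19 in immature fish (SD, n = 14). The log2-ER (pubertal minus immature) was 2.94 with a standard error of 0.51, a 7.66-fold difference (limma, adjusted p = 0.0175), and 5 of 5 pubertal fish lay above the immature mean. In the same fit 106 of 34824 probes passed the threshold of adjusted p under 0.05 and a log2-ER beyond 0.8, which is 0.304% (0.273% higher and 0.0316% lower in pubertal fish). lhb was thus called higher. The call was kept without the array labelled fish 250 (3.16, limma adjusted p = 0.000417). That array held the highest immature lhb, so this is no support. The call was lost without fish 190, 245, 202 or 211 (adjusted p = 0.0550 to 0.0781 from limma).

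Pubertal pituitaries had fshb at 9.0 in fish 190, 8.72 in fish 245, 8.55 in fish 202, 8.17 in fish 211 and 8.42 in fish 213. The immature values ran from 3.15 to 8.70 with a median of 6.33. The top of the immature range reached into the pubertal one, with 8.70 on the array labelled fish 250 and 8.47 in fish 160. Fish 176 of group D followed with 8.09 and fish 180 of the same group with 7.36. At the other end, fish 203 of group B had 3.15, and the next lowest value was 5.41 in fish 221.

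The fshb means were 8.57 ± 0.31 in pubertal (SD, n = 5) and 6.46 ± 1.43 in immature pituitaries (SD, n = 14). The log2-ER was 2.11 (standard error 0.61, 95% interval 0.83 to 3.39), a 4.32-fold difference, and 5 of 5 pubertal pituitaries exceeded the immature mean. It did not pass the threshold after adjustment over all probes (limma, adjusted p = 0.245). Without the array labelled fish 250 it was 2.28 (limma, adjusted p = 0.0940). That array held the highest immature fshb, so this is no support either. By the methods' t-test, which does not adjust for the number of probes, fshb had an unadjusted p of 0.00509 (5 against 14 fish, no exact test) and 529 probes passed.

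The pubertal fish were more tightly grouped in both genes than the immature fish. Between its lowest and highest fish, lhb varied 1.44-fold in 5 pubertal and 19.1-fold in 14 immature pituitaries, or 7.64-fold in immature pituitaries without the array labelled fish 250. For fshb the range was 1.78-fold in pubertal and 46.9-fold in immature pituitaries, or 9.74-fold in immature pituitaries without fish 203.

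**Figure D1:**
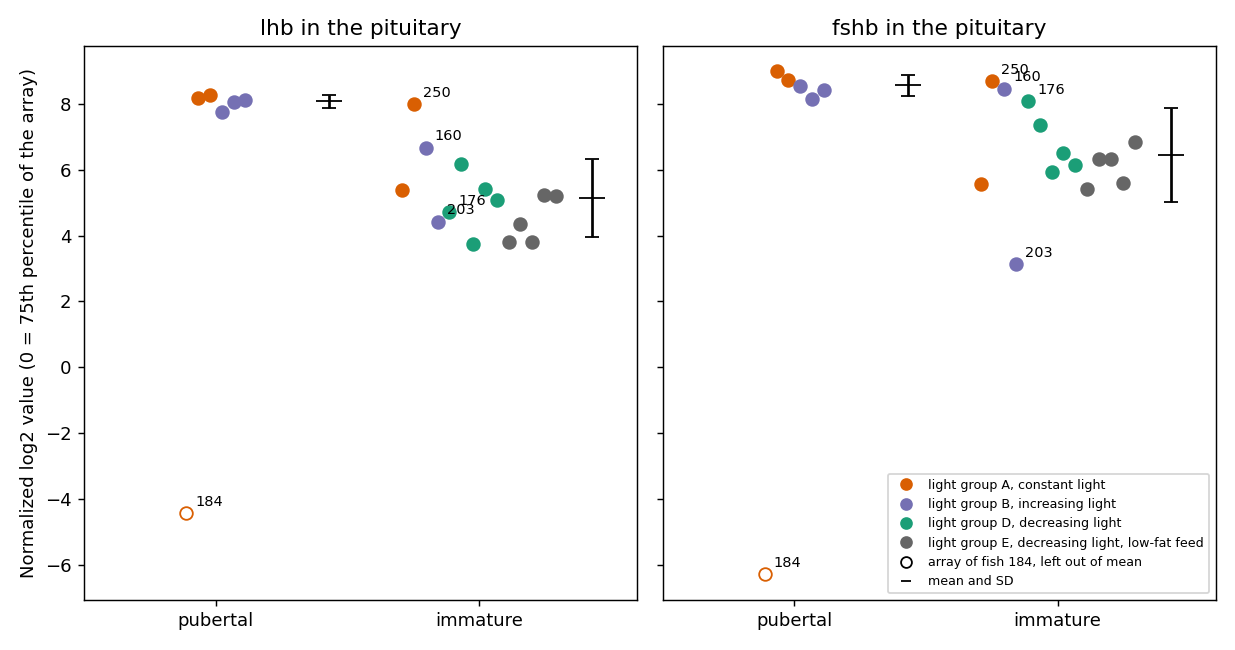
Normalized log2 values of lhb (left) and fshb (right) in single pituitaries, with pubertal fish left of immature fish, colour for the light group, and mean and SD without the array of fish 184 (open circle). The 5 pubertal fish lay between 7.75 and 8.28 for lhb and between 8.17 and 9.0 for fshb, while immature fish spread from 3.74 to 8.0 and from 3.15 to 8.70.

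Fish 160 and 250 are immature by their Stage I labels, but the study treats them as possibly maturing, partly on their pituitary gene expression. They held the highest immature values of both genes, so leaving them out selects on the values compared here. The differences without them are given in this part as a description with no test. Calls from fits without them, listed at the end, are no support. The log2-ER was then 3.30 for lhb and 2.47 for fshb. The immature values reached up to 6.18 for lhb and 8.09 for fshb (fish 176), just under the lowest pubertal fshb of 8.17 in fish 211. With all fish, 0.066% of probes lay higher in every pubertal than in every immature fish, and neither gene was among them.

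The pituitary lists fixed for other cell types stayed under the threshold in the fit of all fish. Of 6 pituitary markers, 5 were lower in pubertal fish by 0.25 to 0.51 on the log2 scale and smtlb (somatolactin beta) was higher by 1.15 (limma, adjusted p = 0.293), none of them past the threshold. None of the 5 brain, 3 blood, 2 testis and 5 adipose markers tested passed it either. The summed level of the brain markers was 2.84 to 4.07 in pubertal and 2.01 to 3.48 in immature pituitaries, and its part in the result was not tested. Of the 5 testis markers, amh (anti-Müllerian hormone) and star were well above background on none of these 19 arrays, cyp17a1 on none of the pubertal and 2 of the immature ones, the germ cell helicase ddx4 on 1 pubertal and 4 immature ones, and dnd1 on all 19. In whole pituitaries, fewer gonadotropin-producing cells and less mRNA per cell cannot be told apart.

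Scan day and light were examined as further differences between the groups. With the scan day as a block, lhb had a log2-ER of 2.18 (adjusted p = 0.218) and fshb one of 1.69 (adjusted p = 0.794, both limma), and 0.0144% of probes were called. The fish of scan day 1 alone must give the same differences, since no pubertal pituitary was scanned on the other day. There fish 160 and 250 are 2 of 6 immature fish and limma called 0 probes (561 at an unadjusted p). With the block and without fish 160 and 250 the values, again with no test, were 2.91 for lhb and 2.53 for fshb. Between pubertal and immature fish of light groups A and B only, in a fit that includes the light group, the log2-ER was 2.03 for lhb (adjusted p = 0.568) and 2.19 for fshb (adjusted p = 0.681, both limma), where fish 160 and 250 are 2 of the 4 immature fish. Including the array of fish 184 lowered the log2-ER of lhb to 0.85 (adjusted p = 0.80) and turned that of fshb to -0.37 (adjusted p = 0.932, both limma).

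Whether both subunits differed by the same amount was tested on the log2 difference lhb minus fshb within each fish. Its zero has no meaning, since different probes are involved, but its shift between the groups has. The difference averaged -0.49 ± 0.32 in pubertal (SD, n = 5) and -1.32 ± 1.13 in immature pituitaries (SD, n = 14). The shift of 0.83 toward lhb had p = 0.137 in a two-sided exact permutation test over the 11628 splits of the fish, so unequal change was not shown. Without the array labelled fish 250 the shift was 0.87 (exact permutation p = 0.128). All 5 pubertal fish lay above the immature mean, within an immature range of -3.37 in fish 176 to 1.28 in fish 203. Without fish 203, where fshb was lowest and the difference highest, the shift was 1.03 (exact permutation p = 0.0131). That fish stands out by the value tested, so this p is no support for unequal change.

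The relation of lhb and fshb within the immature fish depended on which fish were included. Over 14 immature pituitaries Pearson's r was 0.64 (permutation p = 0.0151, adjusted 0.0453 over the 3 relations computed) and Spearman's rho 0.59 (permutation p = 0.0284, adjusted 0.0852). Without the array labelled fish 250, r was 0.51 (permutation p = 0.0727) and rho 0.49 (permutation p = 0.0938). Without fish 160 and 250 r was 0.32 (permutation p = 0.323) and rho 0.35 (permutation p = 0.266). Those fish held the highest values of both genes. Leaving them out narrows the range, so the lower r does not show that the relation is absent. Leaving out the 2 fish farthest from the median of fshb (203 and 250) gave r = 0.57 (permutation p = 0.0547). Within the scan days r was 0.69 among the 6 fish of the first day (exact permutation p = 0.133) and 0.39 among the 8 of the other day (exact permutation p = 0.324), so the relation was not established within either. The discordant fish were 176, with fshb at 8.09 beside lhb at 4.71, and 203, with fshb at 3.15 beside lhb at 4.43.

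**Figure D2:**
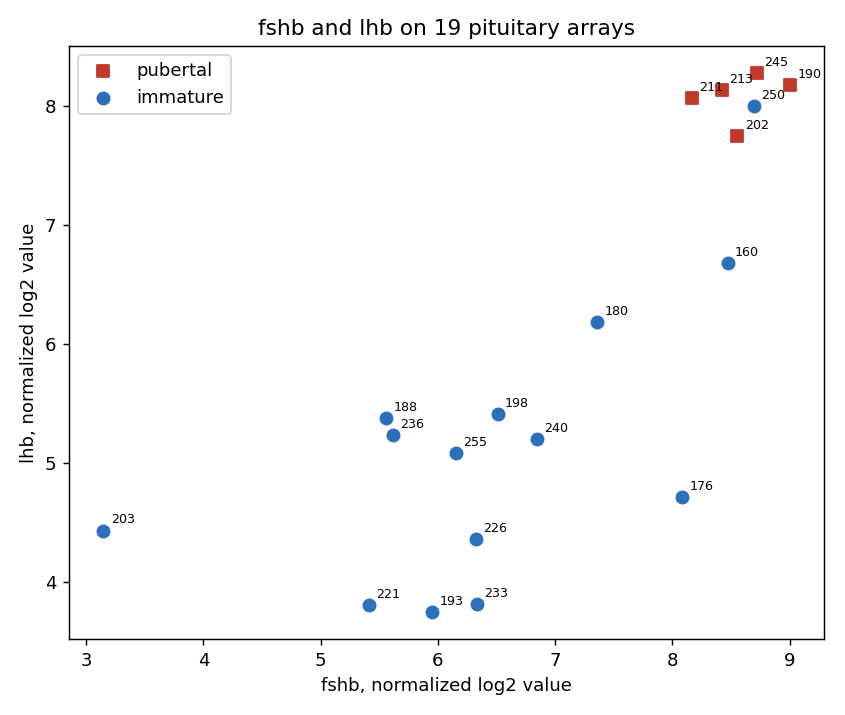
Normalized log2 values of fshb (x axis) and lhb (y axis) in 19 single pituitaries, squares for pubertal and circles for immature fish, numbers for the fish. The 5 pubertal fish and fish 250 cluster at the upper right, and fish 176 and 203 stand apart at fshb of 8.09 and 3.15 with lhb of 4.71 and 4.43.

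The gonad somatic index (GSI) is the weight of the gonad relative to that of the body. Over the 14 immature fish, placed in the order of their GSI as the study's histology table gives it, lhb had a rho of 0.20 with this order (permutation p = 0.495, adjusted 0.584). For fshb the rho was 0.16 (permutation p = 0.584, adjusted 0.584). Without the array labelled fish 250 the rho was 0.13 for lhb and 0.071 for fshb. Within scan days, rho ran from 0.00 (8 fish) to 0.60 (6 fish) for lhb and from -0.40 (8 fish) to 0.43 (6 fish) for fshb, none with an exact permutation p under 0.24.

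**Figure D3:**
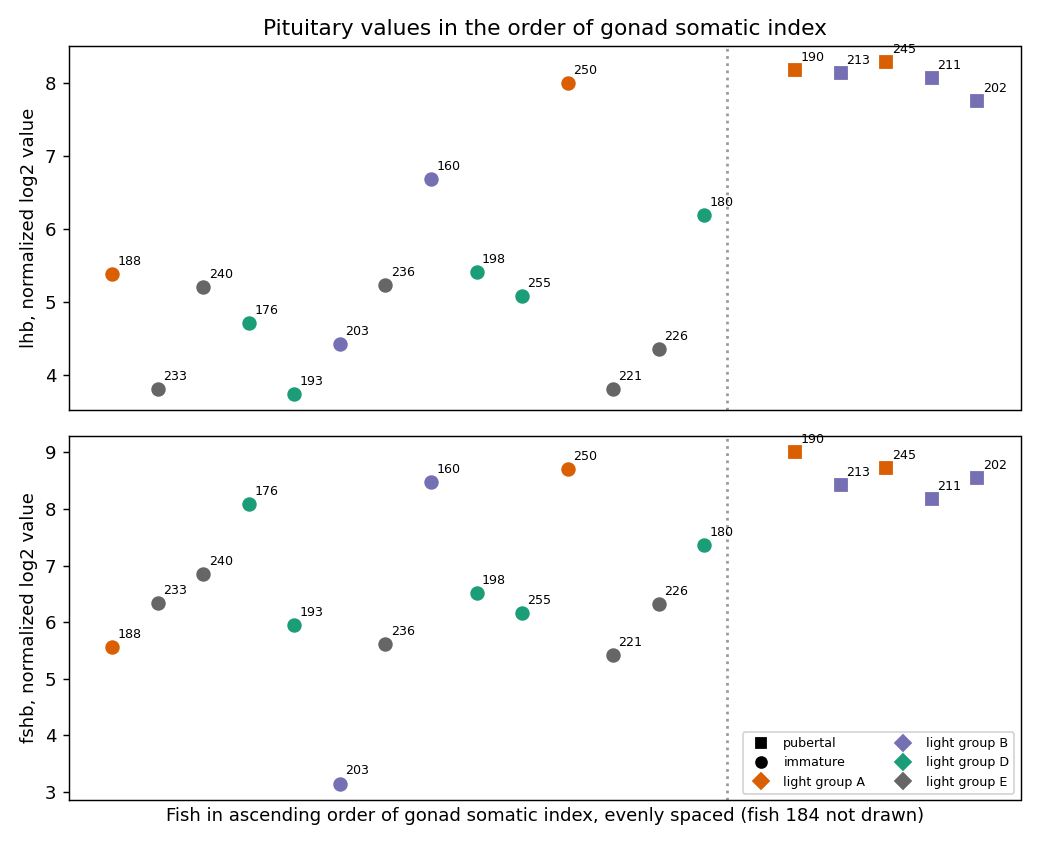
Normalized log2 values of lhb (top) and fshb (bottom) in 19 pituitaries, with fish in ascending order of GSI from left to right, pubertal fish as squares right of the dotted line and immature fish as circles, colour for the light group. No relation of the immature values with the order was shown (rho of 0.20 and 0.16, permutation p = 0.495 and 0.584). The 5 pubertal values lie at 7.75 to 8.28 and at 8.17 to 9.0.

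Light groups were compared among immature fish. Groups D and E were both under decreasing light and group E had the low-fat feed. Their comparison is therefore one of feed and says nothing on light. Group D averaged 5.03 ± 0.90 for lhb and group E 4.48 ± 0.71 (SD, n = 5 each), a difference of 0.54 with a 95% interval of -0.45 to 1.54 (limma, adjusted p = 0.547). For fshb, group D averaged 6.81 ± 0.89 and group E 6.11 ± 0.58 (SD, n = 5 each), a difference of 0.71 with a 95% interval of -0.22 to 1.64 (limma, adjusted p = 0.398). Neither gene was called, and limma called 0 of 33693 probes (0.0%) in this comparison, with 2827 at an unadjusted p under the same limit. The count was 276 without fish 226 and 362 with slide as a random block, while neither gene was called under either. On scan day 2, which held 3 fish of group D and all of group E, the differences were 0.26 for lhb and 0.10 for fshb.

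The 4 immature fish of groups A and B were 5.38 (188), 8.0 (250), 6.68 (160) and 4.43 (203) for lhb, against 3.74 to 6.18 in the 10 fish of groups D and E. They averaged 6.12 ± 1.55 (SD, n = 4) against 4.75 ± 0.81 in groups D and E (SD, n = 10), a difference of 1.37 (standard error 0.57, limma adjusted p = 0.206). Without the array labelled fish 250 this difference was 0.74, without fish 160 and 250 it was 0.15, and with the scan day as a block it was 0.67. In fshb the same fish of groups A and B lay on both sides of all others, at 8.70 and 8.47 in fish 250 and 160 and at 5.56 and 3.15 in fish 188 and 203, of which 5.56 alone was inside the range of groups D and E (5.41 to 8.09). The fshb difference was 0.01 (standard error 0.80, limma adjusted p = 0.996), -0.73 without the array labelled fish 250 and -2.11 without fish 160 and 250. Of all 34580 probes, 718 were called here (2.08%), but 23 with the scan day as a block, 4 on scan day 1 alone and 228 without fish 160 and 250. The arrays of all 4 immature fish of groups A and B were scanned on day 1.

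Genes of the gonadotrope axis were taken from a list of 90 names, of which 20 different genes were found among the probes and 18 were tested in the pituitary. In the fit of all fish 1 of the 18 was called higher and none lower, beside 0.273% and 0.0316% of all probes, with a median log2-ER of 0.03 beside -0.01 over all probes. The called gene was nr5a5, a nuclear receptor of the family of steroidogenic factor 1, which averaged 0.65 ± 0.24 in pubertal (SD, n = 5) and -0.80 ± 0.65 in immature pituitaries (SD, n = 14). Its log2-ER was 1.45 (limma, adjusted p = 0.0302), with pubertal values of 0.33 to 0.87 and a highest immature value of 0.12 in fish 255, so that the groups did not overlap, as for 0.066% of all probes on the higher side. On the array of fish 184 it was 5.41.

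Next in adjusted p were pgr and cyp19a1b, neither past the threshold. The progesterone receptor pgr averaged -1.46 ± 0.62 in pubertal (SD, n = 5) and -3.94 ± 1.24 in immature fish (SD, n = 14), with a log2-ER of 2.48 (limma, adjusted p = 0.0579). The array labelled fish 250 had pgr at -1.1, within the pubertal range of -2.04 to -0.53. The brain and pituitary form of aromatase, cyp19a1b, makes oestrogen from androgen, and averaged 0.80 ± 0.27 in pubertal (SD, n = 5) and -0.46 ± 0.69 in immature pituitaries (SD, n = 14). Its log2-ER was 1.26 (limma, adjusted p = 0.0931). Immature fish 160 and 250 had cyp19a1b in the pubertal range of 0.43 to 1.12, with 0.89 in fish 160 and 1.02 on the array labelled fish 250.

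Of the listed names for an alpha subunit shared by the gonadotropins and thyrotropin, only glha1 was found, and its difference was near 0. The glha1 probe averaged 8.34 ± 0.23 in pubertal (SD, n = 5) and 8.36 ± 0.23 in immature pituitaries (SD, n = 14), a log2-ER of -0.02 with a standard error of 0.13 (limma). The beta subunit of thyrotropin, tshba, averaged 8.47 ± 0.37 in pubertal (SD, n = 5) and 8.88 ± 0.31 in the 13 immature fish with a value, a log2-ER of -0.41 (limma, adjusted p = 0.796). The transcription factors pitx1 and lhx3, which act in pituitary development, had log2-ER of 0.05 and -0.02. The other tested members had adjusted p of 0.985 and above in the fit of all fish. Of these, nr5a1b, a second member of the steroidogenic factor family, had a log2-ER of 0.95, and tac3a, a neurokinin precursor, one of -1.07.

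**Figure D4:**
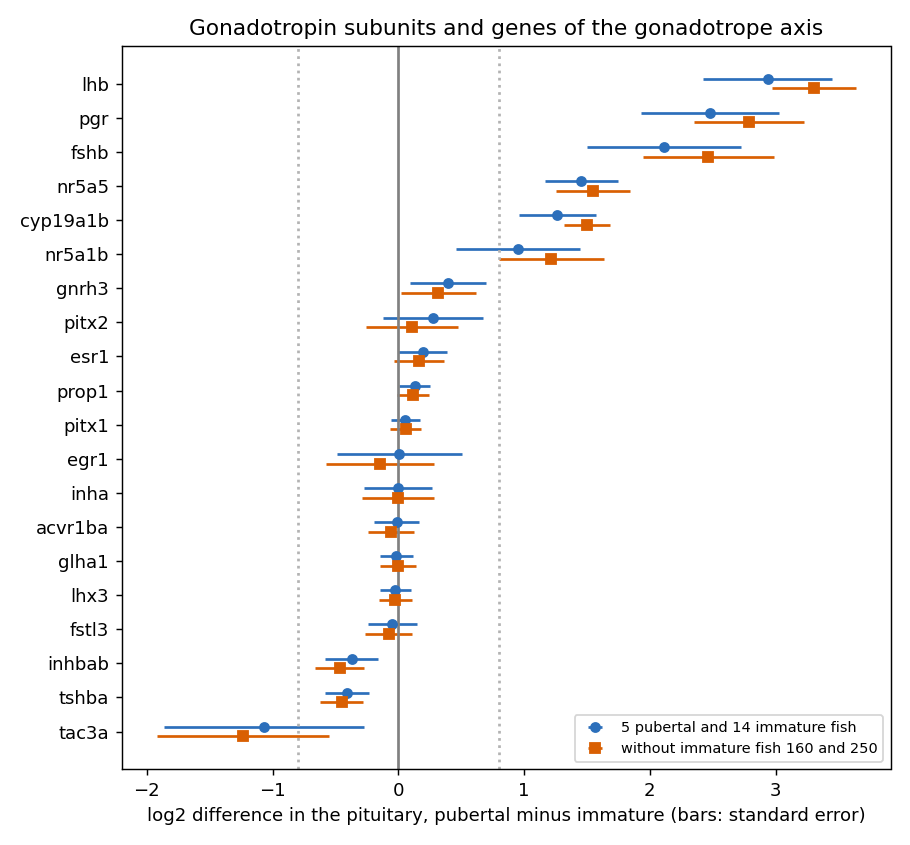
Log2-ER (pubertal minus immature, x axis) in the pituitary for lhb, fshb and the 18 tested genes of the gonadotrope axis, circles for 5 pubertal and 14 immature fish and squares without immature fish 160 and 250 (a description only), bars for the standard error, dotted lines at 0.8 in either direction. lhb, pgr and fshb lie furthest to the right with 2.94, 2.48 and 2.11, and glha1 lies at -0.02.

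By the planned rule, the probes with named genes whose values were most like lhb over the 19 pituitary arrays were zgc:174895 (r = 0.91), meox2b (0.90), nfm (0.89), pdyn (0.89) and i17ra (0.89). The ones most like fshb were pkib (0.88), cyb5r2 (0.87), nr5a5 (0.84), zgc:174895 (0.84) and lhb itself (0.79). In the ranking by likeness to lhb, fshb stood at place 31 of 7103 probes. These correlations include the split between pubertal and immature fish. Within the 12 immature arrays without fish 160 and 250, fshb stood at place 1176 for lhb and lhb at place 1467 for fshb (r = 0.32), and of the leading 5 genes only cyb5r2, for fshb, was also among those above. The first places there were held by tm45b (0.92) for lhb and ccnb1 (0.85) for fshb.

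In the testis both probes were well above background on all 20 arrays, at levels far under those in the pituitary. Pubertal testes had fshb at 0.63 in fish 184, 0.58 in fish 190, 1.0 in fish 245, 1.96 in fish 202, 1.33 in fish 211 and -0.87 in fish 213. Immature testes lay between -0.04 and 1.1 with a median of 0.42. The Stage III testis thus had the lowest fshb of all 20, the 4 Stage IV testes lay at 0.58 to 1.33 and the Stage V testis was highest, with 1 fish each for Stages III and V. These are the stages of the sample labels. The histology table of the study gives Stage V also for fish 245 and 211 by the most advanced cells, so the order by stage holds for the labels only. The log2-ER was 0.31 (95% interval -0.26 to 0.87, limma adjusted p = 0.314), and 5 of 6 pubertal testes exceeded the immature mean.

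For lhb, pubertal testes had -1.91 in fish 184, -1.35 in fish 190, -2.66 in fish 245, -4.51 in fish 202, -3.06 in fish 211 and -3.52 in fish 213. Immature testes ran from -4.54 to -1.32 with a median of -3.60, the highest being fish 160 and the next -2.91. The log2-ER was 0.71 (95% interval -0.15 to 1.58, limma adjusted p = 0.128). In light group A the pubertal testes (-2.66 to -1.35) lay above those of immature fish 188 (-3.51) and 250 (-3.53). In group B the pubertal testes ran from -4.51 to -3.06, beside -1.32 in immature fish 160 and -4.08 in immature fish 203. A higher lhb in pubertal testes was thus seen in group A only. The log2-ER passed the threshold without fish 202, the lowest pubertal testis (1.05, limma adjusted p = 0.0250). It also passed without fish 160, the highest immature testis (0.89, limma adjusted p = 0.0274). Leaving out an extreme value widens the difference by itself, so these calls are no support. Most probes differed between these testes, since 59.1% of 35614 were called (31.9% higher and 27.2% lower) and the median over all probes was 0.29, against 0.15 after quantile normalization and -0.14 in the authors' processed values. In those values the fshb difference was -0.15, so its direction depends on the scaling. The receptor of luteinizing hormone, lhcgr, was lower in pubertal testes by 1.96 on the log2 scale (limma, adjusted p = 6.47e-07), and of the 18 tested axis genes in the testis 12 were lower and 2 higher. Markers of cell types in the testis moved too, with amh (-4.03), star (-2.74), cyp17a1 (-3.37) and dnd1 (-1.66) lower and ddx4 (1.26) higher in pubertal testes, 3 of 3 blood markers lower, and fabp4 of the adipose list higher by 3.04 while 3 others of that list were lower. Their part in the result was not tested.

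In immature fish the pituitary was set against the testis of the same fish in 14 pairs. The pituitary was higher in all 14 for both genes, by 7.15 to 11.5 on the log2 scale for lhb and by 2.74 to 8.35 for fshb. The mean differences were 8.69 for lhb (414-fold, limma adjusted p = 4.23e-14) and 6.0 for fshb (63.9-fold, limma adjusted p = 2.33e-10), where 27.5% of 33937 probes were called higher in the pituitary. Without fish 250 they were 8.48 and 5.82, and with normexp background correction 7.04 and 5.72. The smallest fshb difference belonged to fish 203, whose pituitary held the least fshb. The maturity difference itself was larger in the pituitary than in the testis, by 2.41 for lhb (standard error 0.65, adjusted p = 0.00176) and by 1.78 for fshb (standard error 0.67, adjusted p = 0.0215) by the interaction term of a limma fit with a random effect for fish. This fit left fish 184 out of both tissues and had no term for scan day or light. Without fish 250 the values were 2.62 and 1.96. There 24.1% of probes were called in the same direction and the median over all probes was -0.37.

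In adipose tissue fshb was well above background on 2 of 19 arrays and lhb on 10. Against the 12 paired adipose arrays of immature fish, mean log2 values with a floor on dim adipose signals put the pituitary 1004-fold higher for lhb. For fshb the value was 3551-fold. Both are differences of means over the fish and not of single fish. In fish 188, lhb was 5.38 in the pituitary and -1.26 in adipose tissue. For the floor, an adipose value not well above background was raised to the lowest signal among probes well above background on its array, where that was higher. Of the 12 adipose arrays 6 measured lhb and 1 measured fshb. The floor is not a strict limit. In fish 236 lhb was -5.05, above the floor of -5.08, and still not well above background. In the fit of pituitary against adipose tissue, both probes met the filter through the pituitary arrays alone, so their calls are no support. The fitted differences of 10.61 and 13.01 on the log2 scale (limma, adjusted p = 1.11e-09 and 3.44e-10) rest on signals near the background. They were 10.14 and 12.73 without fish 250, and 6.94 and 7.91 with normexp background correction. The latter are under the differences with the floor (9.97 and 11.79), which hold only for the main background correction and are not lower limits. Of 32401 probes, 26.5% were called higher in the pituitary.

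A pair of adipose arrays stood apart. Pubertal fish 202 had fshb at -0.11, while on the other 18 arrays it lay between -8.06 and -4.16. On this array the testis markers amh and ddx4 were 2.59 and 4.22, and the summed level of the 5 testis markers was 4.66 against -2.34 to 0.79 on the other adipose arrays, while its testis array had the highest fshb of all (1.96). Immature fish 188 had lhb at -1.26, while on the other 18 arrays it lay between -7.85 and -4.15. On that array the sum of the pituitary markers was 0.86, against -3.18 to 5.88 on the other 18, of which the highest, fish 236, had lhb at -5.05, not well above background. The part of other tissue in these values was not tested.

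**Figure D5:**
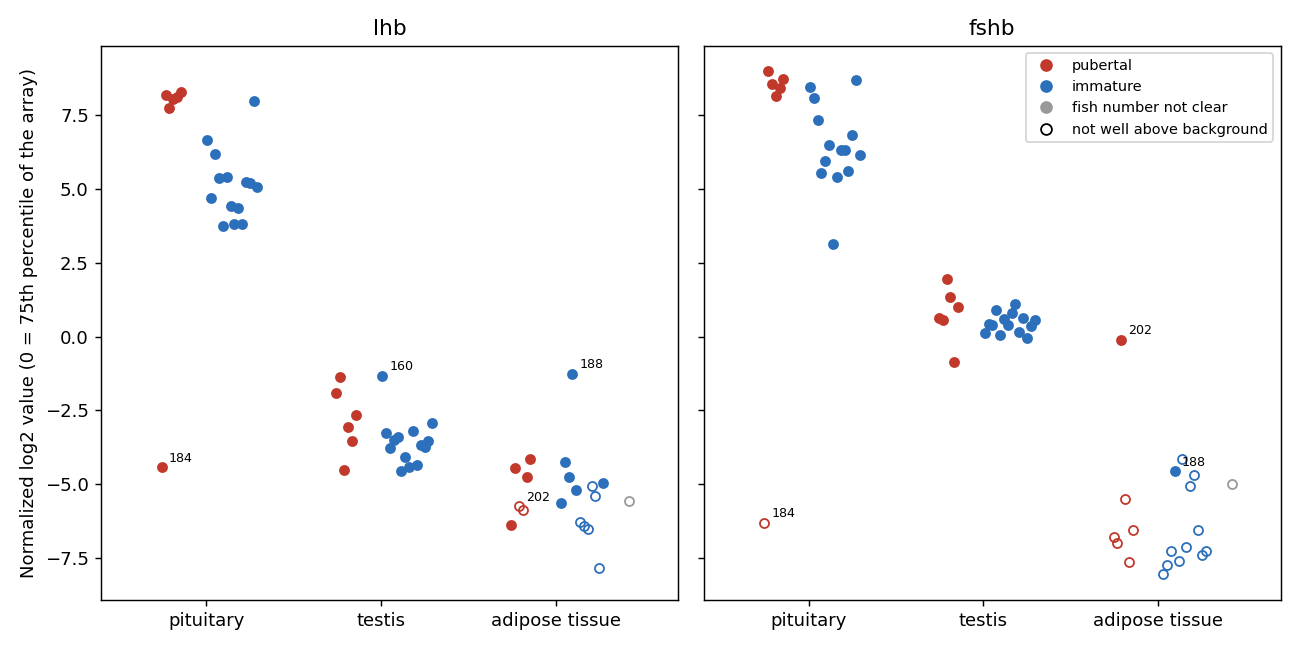
Normalized log2 values of lhb (left) and fshb (right) on all 59 arrays, tissues from left to right and pubertal left of immature fish within each, open circles for values not well above background and grey for the adipose array whose fish number is not clear. Without the array labelled fish 184, every pituitary value (at least 3.74 for lhb and 3.15 for fshb) lies above every testis value (at most -1.32 and 1.96) and every adipose value.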

How the data were processed

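Testis, pituitary and adipose RNA of 20 salmon was hybridised to one-colour Agilent arrays. The authors deposited the intensity of each spot from Agilent Feature Extraction 12.0.1.1 (background-subtracted and detrended). They also gave a table of processed intensities, whose scaling is not given in the sources used here. Its values, taken to log2, served as an alternative. From the spot intensities, outlier spots and controls were left out, duplicate spots averaged, and log2 values set relative to the 75th percentile of each array. A probe was tested if the number of arrays on which it was well above background reached the size of the smaller group. The test was limma 3.58.1 (R 4.3.3), with calls at a Benjamini-Hochberg adjusted p under 0.05 beside an absolute log2-ER over 0.8 (1.741-fold). Single values were tested by permutation (scipy 1.17.1; exact or with 100000 resamples). Fish was a term in comparisons of tissues. Groups came from the labels, and each array was 1 fish.

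Alternatives were quantile normalization, normexp (offset 50) on median signals, median scaling, the authors' values, other filters, fish left out, and slide, scan day and light as blocks. The scripts were tested on simulated data. Named genes were both members, the listed genes of the gonadotrope axis and of cell type markers, and the 5 named genes most correlated with each member. Symbols came from RefSeq, which matched 25420 of 42386 probes. Members, lists and tests were chosen with earlier results of these data known. An adipose array of group E labelled with the number of a group B fish (211) was left out of comparisons. The testis sample titled fish 226 carries the number 236 in its fish tag, and the title was used.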

Additional observations from a re-analysis of the deposited data

Results flagged for a closer look

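Among 26 groups of 4 to 10 arrays examined for a single distant value, of which chance gives about 1 in 20, 3 were found. In pubertal pituitaries the array labelled fish 184 stood apart for lhb (-4.43, with the gap to the nearest fish at 0.958 of the range) and for fshb (-6.30, with the gap at 0.946 of the range). In adipose tissue of group D, fshb of fish 198 was -4.16 (gap at 0.862 of the range), which was not well above background.

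The maturity difference was larger in the pituitary than in the testis by 2.41 for lhb and by 1.78 for fshb on the log2 scale (limma interaction, adjusted p = 0.00176 and 0.0215). The fit left fish 184 out of both tissues and had no term for scan day or light. In the adipose array of pubertal fish 202, fshb was -0.11, above the highest immature adipose value of -4.16.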

How the results depend on the processing

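For lhb in the pituitary, 35 of 43 alternatives kept the call and none reversed it. Among them, the settings without fish 160 or 250 are no support. The call was lost with fish 184 (0.85) and among groups A and B (2.03). With the scan day as a block and on scan day 1 alone it was lost too (2.18 in both, the same by design). It was also lost without fish 190, 245, 202 or 211. Leaving out 1 fish gave 2.83 to 3.16, and up to 3.39 where fish 160 and 250 were also out. For fshb, leaving out 1 fish gave 1.86 to 2.28 with no call, and up to 2.57 where fish 160 and 250 were also out. Of 43 alternatives for fshb, 37 gave no call, as in the main fit, and 5 passed. It passed without fish 160 and 250 (2.47), also with quantile normalization (2.67), normexp (2.61) or the authors' values (2.7). The study set these fish apart partly on pituitary expression, so that this is no support. The other settings without them, the scan day block among them, gave no call. The fshb difference also passed the methods' t-test (2.11) without adjustment but not with it. It was -0.37 with the array of fish 184, which lacked the pituitary markers and had fshb at -6.30. The cause of the other changes was not tested.

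The 106 probes called became 45 with normexp, 19 with fish 184, 2 among groups A and B, 5 with the scan day block, 0 on scan day 1 alone (561 at an unadjusted p, limma), 61 and 529 by the methods' t-test with and without adjustment, and 2 to 215 without 1 fish. Without fish 160 and 250 the count was 303, with 178 under the scan day block and 95 on scan day 1 alone. It was then 330 with quantile normalization, 128 with normexp, 327 in the authors' values, and 217 to 323 without a further pubertal fish.

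The shift of lhb minus fshb was 1.22 with fish 184 (exact permutation p = 0.0414) and 0.67 to 1.03 without 1 fish. The array of fish 184 lacked the pituitary markers and its fshb was not well above background. Its p is therefore no support for unequal change. The rho of fshb and lhb was 0.35 without fish 160 and 250, 0.83 and 0.45 within scan days 1 and 2, 0.49 without fish 250, and 0.48 without fish 203 and 250. With GSI, rho on scan day 2 was 0.0 for lhb and -0.40 for fshb, and -0.091 for fshb without fish 180 and 188. The fshb difference of groups A and B against D and E was -0.27 with normexp, -0.011 in the authors' values, -2.11 without fish 160 and 250, -1.25 with the scan day block and on scan day 1 alone, -0.035 with slide as a block, and -0.73 to 1.12 without 1 fish. In the testis fshb was -0.15 in the authors' values and -0.13 on scan day 4 (1 pubertal fish), and 0.07 to 0.64 without 1 fish, while lhb was 0.42 to 1.05 without 1 fish. Over all 16 alternatives the testis lhb difference ran from 0.19 to 1.70.

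Without the fish as a replicate block, pituitary minus testis remained 8.69 for lhb and 6.0 for fshb, and pituitary minus adipose 10.61 and 13.01, with no call changed. With normexp they were 7.04, 5.72, 6.94 and 7.91, and under the listed alternatives all stayed called. Against adipose tissue these calls are no support, since both probes met the filter through the pituitary arrays alone. Adipose signals near background limit what can be measured there.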
